A study of Mus musculus with 6 samples.

Results

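KAP1 peaks on the autosomes were compared between JB1 and BJ1, hybrid mouse ESC lines from reciprocal crosses, as lists of genomic positions. All peaks on chromosomes 1 to 19 of the KAP1 library of each line were taken, which gave 36174 peaks in JB1 and 68471 in BJ1. These 104645 regions are part of 111248 KAP1 peaks on all chromosomes and of 123233 peaks in all 4 lists of the series, which include ZFP57. Both lines are male and derive from F1 hybrids of the strains JF1 (*Mus musculus molossinus*) and B6 (*Mus musculus domesticus*). JB1 had a JF1 mother and a B6 father, BJ1 had a B6 mother and a JF1 father, and the labels and methods name no engineered allele and no treatment for either. The cells grew without feeders in serum and LIF, for which the sample labels and the methods of the study give different amounts of serum. There was 1 KAP1 library per line, so that the cross, the individual line, its culture and the library cannot be told apart, and no test across samples was possible. The lists give positions only, and the read depth behind them is unknown.

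KAP1 (also TRIM28 or TIF1-β) is a co-repressor that does not read the DNA sequence itself. It is brought to chromatin by KRAB zinc-finger proteins, each of which recognises its own sequence, and it recruits the H3K9 methyltransferase SETDB1 and HP1 proteins. In ESCs it is best known for silencing endogenous retroviruses and other repeats. It also protects DNA methylation at imprinting control regions, where it is recruited by the zinc-finger protein ZFP57 through the methylated hexanucleotide TGCCGC. KAP1 is further known at the 3′ ends of zinc-finger genes.

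Sequences of the B6 reference genome (mm9) are shown first for imprinted loci at which the KAP1 peaks of JB1 and BJ1 overlapped. Each is the 200 bp, clear of annotated exons, with the most copies of TGCCGC inside the part of the peak common to the lines. Capitals mark TGCCGC on either strand, so that GCGGCA is the same motif read on the other strand. The stretches lay at chr7:6682728-6682927 (*Peg3*, paternally expressed zinc-finger gene), chr7:67149300-67149499 (*Snrpn*, a splicing factor gene), chr10:12810867-12811066 (*Plagl1*, zinc-finger regulator of growth) and chr17:12935055-12935254 (*Airn*, non-coding antisense transcript of *Igf2r*). They are written on the plus strand and held 3, 3, 4 and 3 copies, of 7, 10, 6 and 8 copies in the common part of the peaks.
*Peg3*: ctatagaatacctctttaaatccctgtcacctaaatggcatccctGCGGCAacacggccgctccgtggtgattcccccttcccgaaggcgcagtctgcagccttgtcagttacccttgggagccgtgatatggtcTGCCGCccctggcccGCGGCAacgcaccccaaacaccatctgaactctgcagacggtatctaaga
*Snrpn*: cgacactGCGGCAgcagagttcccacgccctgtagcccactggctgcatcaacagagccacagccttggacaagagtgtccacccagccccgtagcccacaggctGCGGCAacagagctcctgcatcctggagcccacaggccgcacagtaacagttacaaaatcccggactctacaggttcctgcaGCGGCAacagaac
*Plagl1*: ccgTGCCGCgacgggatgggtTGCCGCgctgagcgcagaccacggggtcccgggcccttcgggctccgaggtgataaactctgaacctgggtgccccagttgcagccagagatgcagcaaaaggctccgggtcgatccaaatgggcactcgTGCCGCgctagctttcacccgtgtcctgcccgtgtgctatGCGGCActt
*Airn*: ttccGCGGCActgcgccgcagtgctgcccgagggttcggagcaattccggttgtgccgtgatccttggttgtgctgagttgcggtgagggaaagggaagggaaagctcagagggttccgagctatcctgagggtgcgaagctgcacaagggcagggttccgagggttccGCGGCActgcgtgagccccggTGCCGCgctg

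Sequences that recur among the peaks are shown next, because the shares of their copies inside peaks are compared between the lines. A word is a run of 20 bases, counted on both strands, in the 300 bp at the centre of a peak. For each class of peaks, the word present in most peaks was taken, then the most frequent word among the peaks without it, and so on for 3 words. Words 1 to 3 came from the JB1 peaks without an overlapping BJ1 peak, words 4 to 6 from the BJ1 peaks without an overlapping JB1 peak, and words 7 to 9 from the JB1 peaks that overlapped a BJ1 peak. As they were chosen for their frequency in these peaks, their values are a description.
Word 1: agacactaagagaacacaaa
Word 2: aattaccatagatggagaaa
Word 3: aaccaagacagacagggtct
Word 4: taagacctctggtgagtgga
Word 5: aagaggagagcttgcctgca
Word 6: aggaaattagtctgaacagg
Word 7: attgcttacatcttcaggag
Word 8: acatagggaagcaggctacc
Word 9: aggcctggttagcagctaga

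BJ1 had 1.89 times as many KAP1 peaks as JB1, although the peaks were of the same typical size. The median width was 600 bp in both lines, with quartiles of 450 and 900 bp, and all edges lay on a grid of 150 bp. The BJ1 peaks covered 54.1 Mb (2.26% of the autosomes) and the JB1 peaks 32.5 Mb (1.36%), a ratio of 1.66. The lists differed in the widest peaks. Peaks of 3 kb or more numbered 1132 in JB1 (3.13% of the list) and 935 in BJ1 (1.37%), so that JB1 had more of them in a shorter list. The mean width was 898 bp in JB1 and 790 bp in BJ1.

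Most JB1 peaks were found again in BJ1, while most BJ1 peaks were not found in JB1. Of the JB1 peaks, 31173 (86.2%, exact Clopper-Pearson 95% confidence interval 85.8–86.5%) shared at least 1 bp with a BJ1 peak. Of the BJ1 peaks, 30811 (45.0%, 44.6–45.4%) shared at least 1 bp with a JB1 peak. These intervals, as those below, cover counting error only. After 100 random circular shifts of one list along its chromosomes, the share was 4.49% on average (4.19–4.89%) for JB1 and 2.35% (2.21–2.60%) for BJ1. The overlaps came to 27.6 Mb, which is 84.8% of the length of the JB1 peaks and 51.0% of that of the BJ1 peaks. There remained 5001 JB1-only peaks and 37660 BJ1-only peaks, a name used here for peaks without any overlap with the other list. When only the widest 36174 BJ1 peaks were kept, to make the lists equally long, the shares became 66.0% of the JB1 peaks and 63.6% of the BJ1 peaks.

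The share found in the other line rose with the width of the peak. Of the JB1 peaks of 300 bp, the smallest width, 54.8% overlapped a BJ1 peak, and of those over 3 kb 99.5% did (867 of 871). In BJ1, the share was 9.15% at 300 bp, 39.4% at 600 bp, 74.9% at 1050–1500 bp and 95.1% over 3 kb (658 of 692). At every width the share was lower in the BJ1 list.

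**Figure D1:**
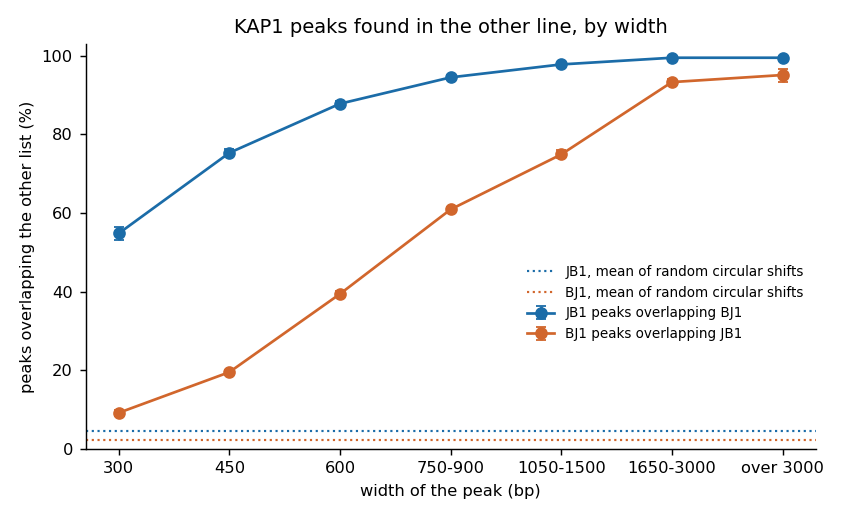
Share of KAP1 peaks that overlap a peak of the other line (vertical axis, %) by peak width (horizontal axis, bp), with exact 95% intervals of the counts; dotted lines give the mean after random circular shifts. JB1 runs from 54.8% to 99.5% and BJ1 from 9.15% to 95.1%.

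The line-only peaks of JB1 and BJ1 lay differently. JB1-only peaks were narrow, with a median of 450 bp against 750 bp for the shared JB1 peaks, and 38.3% of them lay within 1 kb of a BJ1 peak (median distance 2.40 kb). BJ1-only peaks had a median of 600 bp, against 750 bp for the shared BJ1 peaks. Their median distance to a JB1 peak was 27.1 kb, with 7.05% within 1 kb and 72.6% beyond 10 kb. As the lists differ in length, these distances were compared with those to randomly shifted lists. The median was then 16.5 kb on average (15.2–17.5 kb) for JB1-only and 38.0 kb (36.4–39.0 kb) for BJ1-only peaks, with 4.73% and 2.22% within 1 kb. Both classes were thus closer to the other list than to its shifts, by more in JB1.

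Where 1 peak of a line overlapped exactly 1 peak of the other, the peaks had similar edges. There were 25634 such pairs, of which 26.4% had identical start and end and 77.3% had both edges within 1 window of 150 bp. The BJ1 peak was wider in 46.4% of the pairs and the JB1 peak in 21.9%, with mean widths of 873 bp in JB1 and 955 bp in BJ1. Across pairs, the widths correlated with a Spearman rho of 0.670 (n = 25634; the points come from the same pair of libraries). The order was the other way round among the widest pairs. When both widths together exceeded 6 kb, JB1 was wider in 52.3% of 482 pairs and BJ1 in 15.6%.

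The widest KAP1 regions lay on chromosomes 4, 8, 10, 1 and 11, and several differed between the lines. In JB1, the widest peak spanned 57.9 kb (chr4:145677751-145735650) at *Gm13247*, where BJ1 had a peak of 17.7 kb, so that 30.6% of the JB1 length was shared. The next ones were a peak of 29.7 kb at *Dux*, the transcription factor gene of the 2-cell stage, a peak of 18.1 kb at *Gm13139* and a peak of 13.9 kb at *1700029I01Rik*, the last pair also on chromosome 4. At *Dux*, both lines had nearly the same peak (29.7 kb in JB1 and 29.1 kb in BJ1, chr10:57669151-57698250) and a ZFP57 peak. A peak of 13.3 kb on chromosome 11 near *Pisd-ps1* faced a BJ1 peak of only 1200 bp.

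In BJ1, the widest peak spanned 33.0 kb at *Gm10060* (chr8:19760851-19793850) and had no JB1 partner, although it overlapped a BJ1 ZFP57 peak. A further peak of 13.8 kb at *6820431F20Rik* on the same chromosome was also without a partner. At *Hjurp*, which encodes the chaperone of the centromeric histone CENP-A, a BJ1 peak of 20.9 kb (chr1:90168451-90189300) had no JB1 counterpart. Peaks of 11.7 kb at *2610305D13Rik* and of 10.2 kb at *Gm13242*, both on chromosome 4, were likewise called in BJ1 alone. The widest JB1-only peaks were smaller, with 6.45 kb near *9230019H11Rik* on chromosome 10, 5.25 kb near *Vmn1r238* (a vomeronasal receptor gene), 3.75 and 3.15 kb near *Gm5466* on chromosome 2 and 2.85 kb near *Gm15433*. Peaks of 3 kb or more were rare in both classes, with 4 of 5001 JB1-only and 39 of 37660 BJ1-only peaks.

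BJ1 had more peaks than JB1 on each of the 19 autosomes. The median over autosomes was 15.1 peaks per Mb in JB1 and 27.9 in BJ1. The ratio BJ1 over JB1 was lowest on chromosome 7 (1.70, 95% interval 1.62–1.79; 2711 and 4614 peaks), which was also the chromosome with most peaks per Mb in both lines. It was highest on chromosome 11 (2.21, 2.08–2.36; 1473 and 3261 peaks). The median ratio was 1.88.

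In 501 windows of 5 Mb with at least 20 peaks, the ratio ranged from 1.19 to 4.58 with a median of 1.91, and no window had more peaks in JB1. The lowest values were at chr4:1-5000000 (1.19, 95% interval 0.890–1.59, with 90 and 107 peaks), at chr7:5000001-10000000 (1.23, 1.01–1.48, with 200 and 245) and at the end of chromosome 4 (1.23, 0.768–1.98, with 35 and 43). Of these, the chromosome 7 window held 11 numbered zinc-finger genes and the chromosome 4 windows held none. The highest values were at chr6:90000001-95000000 (4.58, 2.76–7.97, with 19 and 87), chr7:85000001-90000000 (4.07, 2.67–6.40, with 28 and 114) and chr11:95000001-100000000 (4.07, 2.71–6.28, with 30 and 122). The order among these windows is therefore not fixed by the counts. The last window held 652 annotated transcript starts, and the ratio tended to be higher in windows with more annotated starts. Its Spearman rho with the number of transcript starts was 0.486 (n = 501 windows of the same libraries). The median ratio was 2.22 in the windows with most starts and 1.63 in those with fewest, when the windows were divided into 4 groups by their starts.

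**Figure D2:**
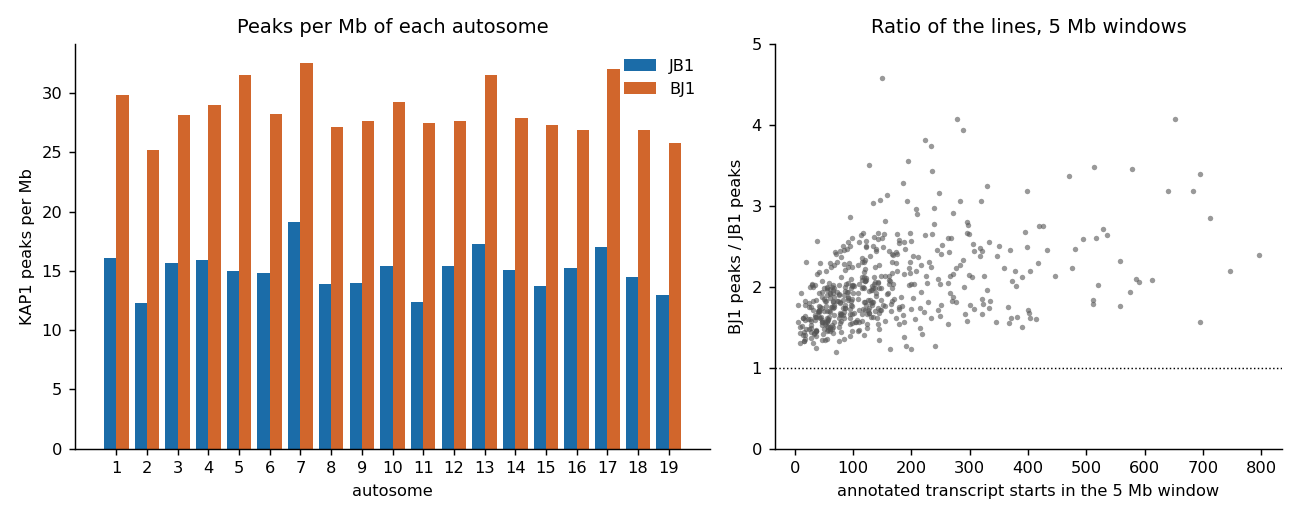
Left, KAP1 peaks per Mb on each autosome in JB1 and BJ1; right, BJ1 peaks divided by JB1 peaks in each 5 Mb window (vertical axis) against the annotated transcript starts in it (horizontal axis), 1 point per window, the dotted line marking equal numbers. BJ1 is higher on all 19 autosomes, and all 501 windows lie above 1.

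KAP1 peaks were mostly intergenic in both lines, and the BJ1-only peaks lay closer to transcript starts than the shared ones. In JB1, 73.2% of the peaks were intergenic, 21.3% were in introns, 1.32% in exons and 4.24% (4.03–4.45%) within 1 kb of a transcript start, called promoter here. After shifts of the list, the promoter share was 5.60% on average, the intron share 35.2% and the intergenic share 56.9%. In BJ1, the promoter share was 6.95% (6.77–7.15%), against 5.47% after shifts, and 65.6% of the peaks were intergenic. The promoter share of JB1 was therefore below, and that of BJ1 above, the range of the shifts of its own list. It was 4.51% in shared BJ1 peaks and 8.96% in BJ1-only peaks, compared with 4.34% in shared JB1 peaks and 3.58% in JB1-only peaks. The median distance to the nearest transcript start was 30.4 kb for shared and 20.7 kb for BJ1-only peaks.

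Seen from the BJ1 list, 50.2% of the intergenic peaks but only 29.2% of the promoter peaks (1389 of 4762) were found in JB1. The difference remained among peaks of equal width. At 600 bp, 45.0% of the intergenic and 22.8% of the promoter peaks of BJ1 overlapped a JB1 peak. In the JB1 list, 86.2% of all intergenic and 88.3% of all promoter peaks were found in BJ1. At 600 bp, these shares were 87.1% (86.3–88.0%) and 92.0% (89.0–94.3%), so that the promoter peaks of JB1 had the higher share.

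Base composition and ZFP57 also differed between shared and line-only peaks. In the 300 bp at the peak centre, the ratio of observed to expected CpG was 0.391 at the median of shared JB1 peaks and 0.392 in shared BJ1 peaks, compared with 0.245 in JB1-only and 0.210 in BJ1-only peaks and with 0.152 in all 300 bp tiles of the autosomes. GC content was 48.3% and 48.7% in the shared peaks, 44.0% in JB1-only and 48.7% in BJ1-only peaks, and 41.7% in the tiles. CpG-rich centres, with at least 50% GC and a CpG ratio of at least 0.6, made up 16.0% of shared JB1, 4.14% of JB1-only, 16.9% of shared BJ1 and 6.37% of BJ1-only peaks, and 0.856% of the tiles. At promoters, this difference was not seen, with 30.8% of shared and 31.8% of JB1-only peaks in JB1 and 32.0% of both classes in BJ1.

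The ZFP57 hexanucleotide TGCCGC was present in the central 300 bp of 16.5% (16.1–16.9%) of shared JB1 peaks and 16.0% (15.6–16.4%) of shared BJ1 peaks, and in 1.86% of all tiles. JB1-only peaks held it in 18.4% (17.4–19.5%) and BJ1-only peaks in 5.20% (4.98–5.43%). Over the whole peak, which is longer in shared peaks, the order was different in JB1, with the motif in 33.3% of shared and 21.8% of JB1-only peaks. In BJ1, it was present in 34.0% of shared and 8.31% of BJ1-only peaks. At the peak centre, peaks that were not CpG-rich gave the same order, with 17.1% of JB1-only and 4.44% of BJ1-only peaks. A JB1 ZFP57 peak overlapped 4.62% (231) of the JB1-only and 15.7% of the shared JB1 peaks. The motif was present in 35.1% of the JB1-only peaks with ZFP57 and in 17.6% of those without. As few JB1-only peaks had ZFP57, 840 of the 921 with the motif were without it. The JB1-only peak with most copies (10, at chr2:133059657-133059856, nearest to the pseudogene *Gm14094*) is shown on the plus strand as an example without ZFP57, with the motif in capitals.
Chromosome 2 JB1-only: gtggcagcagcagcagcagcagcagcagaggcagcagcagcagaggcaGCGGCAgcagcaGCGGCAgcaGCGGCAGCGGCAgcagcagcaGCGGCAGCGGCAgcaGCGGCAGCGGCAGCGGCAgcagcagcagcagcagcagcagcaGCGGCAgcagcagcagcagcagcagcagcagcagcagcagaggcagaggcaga
In this stretch the motif recurred within a short tandem repeat. In BJ1, where the ZFP57 list was much shorter (1252 autosomal peaks, against 9831 in JB1), ZFP57 was found at 2.05% of the shared and 0.135% of the BJ1-only KAP1 peaks.

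The lists differed in how many copies of the recurring words they covered. The copies of a word were found by exact match on the autosomes, and those inside a KAP1 peak of each line were counted. Word 7, from shared peaks, had 4945 copies, of which 99.7% lay in a JB1 peak and 98.5% in a BJ1 peak, 4866 of them in both. Word 9 had 1349 copies, with 98.4% in JB1 peaks and 100% in BJ1 peaks. Nearly every copy of these sequences was hence within a peak of both lines.

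Words 4, 5 and 8 were covered in BJ1 more often than in JB1 by more than the 1.66-fold covered length of the BJ1 list. For words 4 to 6, an excess in BJ1 follows in part from their choice in BJ1-only peaks. Word 8 was chosen in shared JB1 peaks. Of 6537 copies of word 8, 94.2% lay in a BJ1 peak and 38.5% in a JB1 peak. Of 8618 copies of word 4, 76.4% lay in a BJ1 peak and 27.8% in a JB1 peak. These words lay together, as 96.6% of the copies of word 8 had word 4 within 1 kb. For word 5 (4117 copies), the shares were 56.6% in BJ1 and 22.2% in JB1, while for word 6 (7204 copies), with 39.2% and 24.8%, the excess did not exceed that of the covered length. A copy covered in JB1 but not in BJ1 was rare for these 4 words, with 19 copies for word 4, 23 for word 5, 5 for word 6 and 11 for word 8.

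The words of JB1-only peaks behaved in another way. Words 1 and 2, which lay within 1 kb of each other at 62.3% of the copies of word 1, had 12395 and 12631 copies, few of which were in peaks. For word 1, 6.43% lay in JB1 and 4.85% in BJ1 peaks, with 606 copies covered in JB1 alone, 410 in BJ1 alone and 191 in both. Word 1 was present in 9.08% (8.30–9.91%) of JB1-only peaks, in 0.815% of BJ1-only peaks and in 0.488% of shared JB1 peaks. Word 3 had 994 copies, with 32.5% in JB1 and 12.1% in BJ1 peaks. It lay beside a sequence covered in both lines, since 85.9% of its copies had word 9 within 1 kb. Any of words 1 to 3 was present in 15.5% of the JB1-only and 0.834% of the shared JB1 peaks. Any of words 4 to 6 was present in 8.50% of the BJ1-only and 7.16% of the shared BJ1 peaks, so that together they were nearly as frequent in shared peaks. Word 4 was present in 4.16% of the BJ1-only and 2.95% of the shared BJ1 peaks, and word 5 in 2.78% and 1.28%. Word 6 went the other way, with 1.72% of the BJ1-only and 2.97% of the shared BJ1 peaks.

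ZFP57 was frequent at word 7. Of the shared JB1 peaks with this word at the centre, 49.8% overlapped a JB1 ZFP57 peak, compared with 15.7% of all shared JB1 peaks. In BJ1, the values were 4.34% and 2.05%. The other shared words had ZFP57 at 1.07% (word 8) and 0.448% (word 9) of their shared JB1 peaks. Among shared JB1 peaks, from 74.8% to 83.6% of those with a given word were intergenic, compared with 73.2% of all shared JB1 peaks. How reads from repeated sequence were placed on the genome is not given in the sources used here, and its part in these values was not tested.

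**Figure D3:**
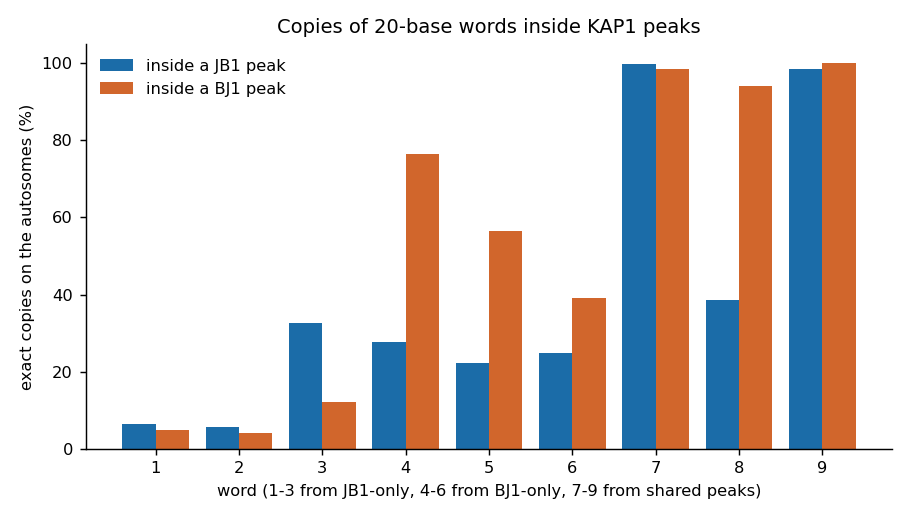
Share of the exact copies of each 20-base word on the autosomes (vertical axis, %) that lie inside a JB1 or a BJ1 KAP1 peak; words 1 to 3 were chosen in JB1-only, 4 to 6 in BJ1-only and 7 to 9 in shared peaks. Words 7 and 9 exceed 98% in both lines, while words 4 and 8 reach 76.4% and 94.2% in BJ1 and 27.8% and 38.5% in JB1.

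Among genes, BJ1 peaks reached many more promoters than JB1 peaks. Of 21281 protein-coding autosomal genes, 984 (4.62%) had a promoter peak in JB1, 3544 (16.7%) in BJ1 and 891 (4.19%) in both. Hence, 93 genes had one in JB1 alone and 2653 in BJ1 alone. Of the distinct BJ1 peaks at promoters, 25.4% overlapped a JB1 peak. The gene lists below are read against these shares. Any annotated transcript start of a gene counted, so a promoter peak may lie within the gene or at its 3′ end.

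The histone genes of the *Hist* clusters showed the largest contrast between the lines of all lists examined. These genes encode the histones made for DNA replication and occur in near-identical copies. None of the 67 had a promoter peak in JB1, and 43 (64.2%) had one in BJ1. The 43 genes were served by 30 distinct BJ1 peaks, 600 to 1650 bp wide (median 1050 bp), and none of the 30 overlapped a JB1 peak. On chromosome 13, 37 of 55 genes had a BJ1 peak, on chromosome 3, 5 of 9, on chromosome 6, 1 of 1, and on chromosome 11, 0 of 2. All kinds of histone took part, with 5 of 6 genes of linker histone H1, 9 of 19 of H2A, 9 of 18 of H2B, 9 of 11 of H3 and 11 of 13 of H4. The widest of these peaks had 1650 bp and lay at *Hist1h1c* (chr13:23830501-23832150) and over the neighbours *Hist1h2bl* and *Hist1h2ai* (chr13:21807451-21809100), within 1 kb of the start of *Hist1h3h*, so that genes sharing a peak are not separate observations. A JB1 peak over the gene or within 5 kb was present at 5 of the 67 genes, and a BJ1 peak at 59, compared with 26.6% and 53.7% of all protein-coding genes. These shares depend on gene length, which was not matched, and most *Hist* genes are short. Reads from near-identical copies may not separate these genes, and the part of this in the result was not tested.

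The 150 bases before the start of *Hist1h1c* (chr13:23830526-23830675, plus strand) are shown as an example of a promoter with a peak in BJ1 alone, with CCAAT (or ATTGG on the other strand) in capitals.
*Hist1h1c*: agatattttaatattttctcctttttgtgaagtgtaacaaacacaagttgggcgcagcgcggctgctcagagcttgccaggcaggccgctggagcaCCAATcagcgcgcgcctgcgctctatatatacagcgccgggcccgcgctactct
CCAAT in either orientation was present in the 250 bases before the start of 35 of the 43 histone genes with a BJ1 peak and of 22 of the 24 without, and of 34.7% of all 21281 genes. It did not set the histone genes with a peak apart from those without.

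Ribosomal proteins are also made in large amounts in growing cells. Of 74 ribosomal protein genes, 1 had a promoter peak in JB1 and 9 (12.2%) in BJ1, which is below the 16.7% of all genes. None of the 9 BJ1 peaks overlapped a JB1 peak, among them those of *Rps18* (1350 bp), *Rpl7l1* (1050 bp), *Rpl37* and *Rpl39l* (900 bp each). The *Rps18* peak lay at the 3′ end of the gene, over its last exon.

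**Figure D4:**
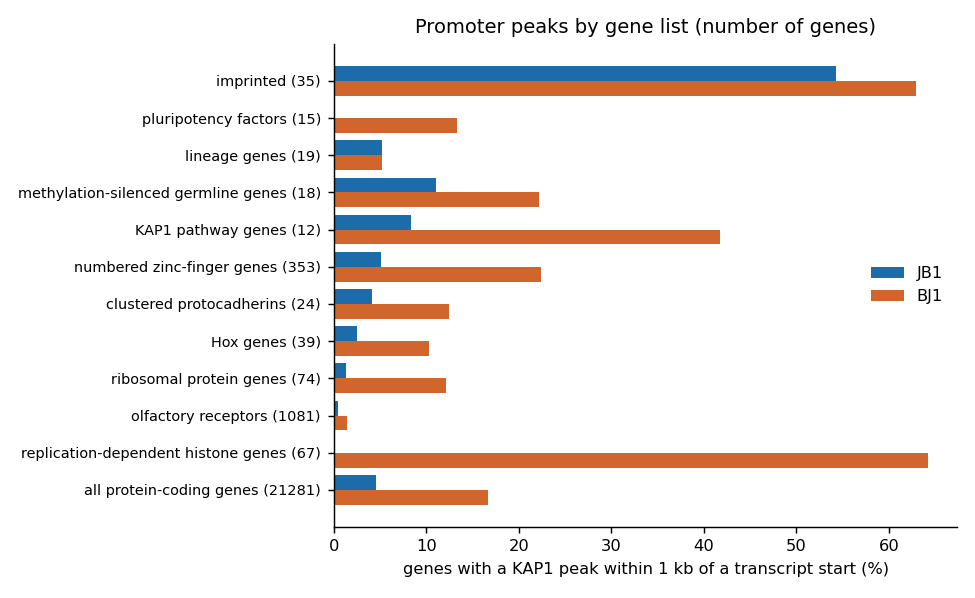
Share of the genes of each list with a KAP1 peak within 1 kb of a transcript start (horizontal axis, %), for JB1 and BJ1; the number of genes is given in parentheses. Imprinted genes have a peak in both lines (54.3% and 62.9%), whereas the histone genes have none in JB1 and 64.2% in BJ1; all protein-coding genes are at 4.62% and 16.7%.

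Imprinted genes, by contrast, had KAP1 in both lines. Of 35 genes, 19 (54.3%) had a promoter peak in JB1, 22 (62.9%) in BJ1 and 18 in both, and 15 of the 18 distinct BJ1 peaks overlapped a JB1 peak. When the gene body and 5 kb on each side were considered, 27 loci had a peak in both lines. Over all protein-coding genes, 25.5% had one in both lines at this reach, which grows with gene length and was not matched for it. The widest peaks of the lines overlapped at 22 of the 27 loci, and lay at different positions at *H13*, *H19*, *Igf2*, *Inpp5f* and *Meg3*. Narrower peaks of a locus may still overlap. At *Inpp5f*, the promoter peaks of the lines did so (1350 bp in JB1 and 1050 bp in BJ1). *Mcts2* had a peak in JB1 alone, and *Cdkn1c* (a cell-cycle inhibitor), *Rasgrf1* and *Slc38a4* in BJ1 alone. *Dlk1*, *Magel2*, *Ndn* and *Usp29* had none. The widest peaks of the lines formed 16 distinct overlapping pairs, and a ZFP57 peak of both lines was present at 15 of them.

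Of these pairs, 8 of 16 differed in width by at most 1 window of 150 bp, compared with 70.1% of all 25634 one-to-one pairs. The peak had the same width in both lines at 5, namely *Mest* (2850 bp), *Airn* with *Igf2r* (1950 bp), *Zrsr1* with *Commd1* (1950 bp), *Snrpn* (1650 bp) and *Grb10* (900 bp). BJ1 was wider at 9, as at *Nnat* with *Blcap*, with 1650 bp in JB1 and 2700 bp in BJ1. At *Plagl1* and *Impact*, the values were 1200 and 1500 bp. JB1 was wider at 2, *Peg3* (1950 and 1800 bp) and *Kcnq1* (1200 and 1050 bp). The median over the 16 pairs was 1275 bp in JB1 and 1575 bp in BJ1. The TGCCGC stretches printed above for *Peg3*, *Snrpn*, *Plagl1* and *Airn* lay inside these pairs.

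**Figure D5:**
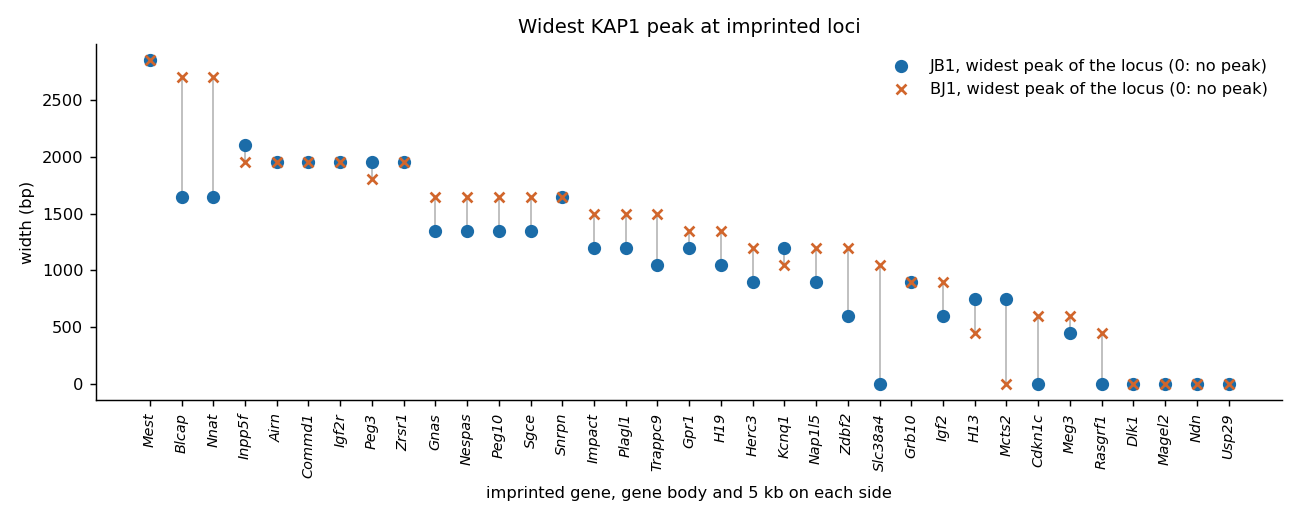
Width of the widest KAP1 peak (vertical axis, bp) over each of 35 imprinted genes with 5 kb on each side, in JB1 (circles) and BJ1 (crosses); 0 marks no peak, and genes that share a peak are drawn separately. The circles and crosses of most loci with a peak in both lines lie within 300 bp of each other, and *Nnat* and *Blcap* lie farthest apart (1650 and 2700 bp).

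Zinc-finger genes, which include the partners of KAP1, had peaks in their last exon in both lines. Among 353 numbered *Zfp* genes, 33 (9.35%) had a peak in the last exon in JB1 and 72 (20.4%) in BJ1, 32 of them in both. Over all protein-coding genes, the shares were 1.74% and 5.21%. As the last exon of these genes is long, they were also compared at lengths of 1386–3298 bp. There, 16 of 177 *Zfp* genes (9.04%) in JB1 and 41 (23.2%) in BJ1 had a peak, compared with 2.41% and 7.19% of 5649 other genes. The widest lay at *Zfp534* (7500 bp in JB1 and 14700 bp in BJ1, a peak that also reached *2610305D13Rik*) and *Zfp600* (4050 and 6750 bp) in the chromosome 4 cluster. *Zfp11* (2550 and 2250 bp) and *Zfp575* (2550 and 900 bp) had the wider peak in JB1.

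As over all genes (4.62% in JB1 and 16.7% in BJ1), fewer *Zfp* genes had a promoter peak in JB1 (18, 5.10%) than in BJ1 (79, 22.4%). Of these, *Zfp462* had a peak in both lines (1800 bp in JB1 and 3150 bp in BJ1), while *Zfp936* (3000 bp), *Zfp445* (2850 bp) and *Zfp809* (2100 bp) had one in BJ1 alone. The calls at the last 3 genes rest on the 1 kb limit, because these BJ1 peaks overlapped narrower JB1 peaks that lay farther from the start (2550, 1350 and 1050 bp wide). The *Zfp462* peaks lay within the gene, more than 1 kb from its 5′ end. *Zfp809* encodes a KRAB zinc-finger protein that brings KAP1 to retroviral primer binding sites.

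Of 12 genes of the KAP1 pathway, 1 had a promoter peak in JB1 and 5 in BJ1, against 4.62% and 16.7% of all genes. Of the 5 BJ1 peaks, 1 overlapped a JB1 peak, compared with 25.4% over all genes. The maintenance DNA methyltransferase gene *Dnmt1* (1200 bp), the *de novo* methyltransferase gene *Dnmt3a* (450 bp), the gene of its cofactor *Dnmt3l* (750 bp) and *Zfp57* itself (750 bp) had a peak in BJ1 and none in JB1, over the whole locus as well. *Trim28*, which encodes KAP1, had a peak in both lines (450 bp in JB1 and 750 bp in BJ1). It lay at the 3′ end of the gene, within 1 kb of the start of a short annotated transcript. The *Dnmt3l* peak lay within the gene, more than 1 kb from its 5′ end. *Setdb1*, *Atf7ip*, *Uhrf1*, *Dnmt3b* and the HP1 genes *Cbx1*, *Cbx3* and *Cbx5* had no promoter peak in either line.

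The remaining lists had promoter peaks at few genes. In BJ1, the share was 13.3% of the pluripotency factors, 5.26% of the lineage genes, 22.2% of the germline genes, 10.3% of the *Hox* genes and 12.5% of the protocadherins, beside 16.7% of all genes, and it rests on 1 to 4 genes in each list. Of 15 pluripotency factors, *Lin28a* (900 bp) and *Pou5f1* (750 bp) had one in BJ1 and none in JB1. Of 19 lineage genes, *Pax6*, the eye and neural regulator, had the same peak of 750 bp in both lines. Among 18 germline genes silenced by DNA methylation, *Dazl* (450 bp in JB1 and 600 bp in BJ1) and *Dpep3* (1800 and 1050 bp) had one in both lines, and *Brdt* and *Tuba3a* in BJ1 alone. The *Brdt* peak lay within the gene, more than 1 kb from its 5′ end. Of 39 *Hox* genes, *Hoxb3* had a peak of 600 bp in both lines and *Hoxa3*, *Hoxa9* and *Hoxd10* in BJ1 alone. The peaks at *Hoxb3*, *Hoxa3* and *Hoxa9* lay within the gene, more than 1 kb from its 5′ end. Clustered protocadherins had 1 gene of 24 in JB1 and 3 in BJ1, with *Pcdhb7* in both. Olfactory receptor genes were nearly free of promoter peaks, with 5 (0.463%) of 1081 in JB1 and 16 (1.48%) in BJ1.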

How the data were processed

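Chromatin of JB1 and BJ1 was precipitated with an antibody against KAP1 and sequenced by the authors as 50 bp single-end reads. According to the methods and the submitters' processing notes, the authors used CASAVA 1.8.2, Trim Galore, Bowtie 0.12.7 against mm9 (up to 2 mismatches per read) SAMtools 0.1.18 and bedtools 2.14.3-1, and called peaks with MACS (*P*-values below 1e-05). The handling of reads with several matches is not given in the sources used here. The deposited lists, 1 per library, give chromosome, start and end, counted from 1, with no score, height or read number, so that depth is unknown and width served as the only size. Whether input entered peak calling is not given in these sources either, and the input libraries were not analysed here.

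Peaks were compared on the autosomes. Overlap meant at least 1 bp. Genes came from GENCODE M1 and sequences from the NCBIM37 (mm9) genome. Promoters lay within 1 kb of a transcript start, by overlap, and exons and introns were assigned at the peak centre. Genes with the same name on a chromosome were counted once. In random shifts, a list was moved by 1 circular offset per chromosome, between its first and last known base, 100 times for overlap and distance and 20 times for gene position. Intervals of shares are exact Clopper-Pearson. The peak lists, gene lists and rules were chosen with earlier results of these data known. Named were the 5 widest peaks of each list and of its line-only peaks, all imprinted loci, up to 4 genes of each other list with the widest promoter peaks, all members of lists of 12 or fewer, and the extreme chromosomes and windows. For some lists, further genes were named after their values were seen, as were the recurring words and the last-exon peaks. Of 37 imprinted genes, 35 were found in the annotation. Overlap, motif and word searches were tested on simulated data. Python 3.11.15 was used with numpy 2.4.6, pandas 2.3.3, scipy 1.17.1 and matplotlib 3.10.9.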

Additional observations from a re-analysis of the deposited data

Results flagged for a closer look

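KAP1 peaks on the sex chromosomes lay outside the comparisons, which used autosomes. There were 2539 such peaks in JB1 and 4064 in BJ1, of which 114 and 129 were on the Y chromosome. Their median width was 600 bp in both lines, and 81.7% (80.1–83.2%) of those of JB1 and 50.8% (49.2–52.3%) of those of BJ1 overlapped a peak of the other line.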

How the results depend on the processing

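Of 30 values recomputed under alternatives, 10 stayed within the counting interval, or within 1.5 times for the ratio of peak numbers, and 20 moved. The ratio was 1.87 with the sex chromosomes and 2.10 with joined peaks, and the median widths were 600 bp under both. The ratio in the widest 50% of each list is 1.89 by construction and was not counted. The share of JB1 peaks found in BJ1 was 75.0% with a reciprocal overlap of at least 50%, 91.5% with peaks up to 1 kb apart counted as shared, 88.2% in the widest 50% of each list, 66.0% with lists of equal length and 87.4% with peaks within 1 kb joined first. The share of BJ1 peaks found in JB1 was 39.6%, 48.9%, 46.7%, 63.6% and 42.0% in the same order. It was the lower share under each of these alternatives. With equal lengths, the shares differed by less than under the others. The promoter share of JB1 was 3.14% at 500 bp, 6.36% at 2 kb, 2.28% with protein-coding starts only, 3.40% at the peak centre and 3.60% in the widest 50%. In BJ1 it was 5.39%, 9.64%, 4.63%, 5.84% and 7.80%, higher than in JB1 under each. No paired analysis was possible because each line had a single KAP1 library and no result came from a test across samples. For the same reason, no library could be left out. Peaks that fell below the threshold of the caller in 1 library only cannot be told apart from absent binding, as the depth is unknown.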

Other observations

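Genes that do not code for proteins differed by type. Promoter peaks were present at 5.11% of 1232 lincRNA genes in JB1 and 18.2% in BJ1, at 4.29% and 8.99% of 1468 miRNA genes, at 3.31% and 7.51% of 1331 snRNA genes, at 2.26% and 5.97% of 1458 snoRNA genes and at 6.19% and 10.1% of 4055 pseudogenes. The annotated rRNA genes were the single type of those examined with more in JB1, with 20 of 307 (6.51%) in JB1, 17 (5.54%) in BJ1 and 8 in both.

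Among protein-coding genes, CpG-rich promoters, judged over 500 bp on each side of the start, had peaks more often in both lines. In JB1, 5.75% of 9620 genes with a CpG-rich 5′ end and 3.70% of 11661 others had a promoter peak, and in BJ1 20.9% and 13.2%. Genes with a promoter peak in BJ1 alone had a CpG-rich 5′ end as often as those with one in both lines (56.7% of 2653 and 56.5% of 891).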
